A study of Mus musculus with 9 samples.

Results

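Cells of the mouse neuroblastoma line N1E-115 that overexpressed Tcof1 were compared with cells of the same line labelled as Tcof1 knockdown, in which a Tcof1 level below wildtype was not detected. The 6 arrays were chosen by their titles, overexpressed Tcof1 A, B and C and knockdown Tcof1 A, B and C, out of 9 arrays in all. The remaining 3 arrays, wildtype Tcof1 A, B and C, are given beside them. Total RNA was measured, all groups share the N1E-115 background, and mouse Tcof1 is the gene labelled as overexpressed or knocked down. The sources used here do not give the method of overexpression or knockdown, or the time after it. They also do not give whether a group is 1 clone, or whether the letters mark separate cultures. A p-value thus measures no more than the spread of these arrays, part of which may be technical.

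Tcof1 encodes treacle, a nucleolar phosphoprotein that binds RNA polymerase I and its upstream factors, promotes transcription of the ribosomal RNA genes and takes part in pre-ribosomal RNA modification. Loss of 1 copy in humans causes Treacher Collins syndrome, a disorder of the facial skeleton that arises from neural crest. N1E-115 is a catecholaminergic line, and neuroblastoma itself descends from the sympathetic branch of the neural crest. Setting the overexpressing against the knockdown cells sets the outer Tcof1 labels of the design against each other.

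Values are linear intensities as deposited. Differences are overexpressed minus knockdown on the log2(intensity + 16) scale, ± the standard error of limma's fit, which understates changes of dim probe sets. A probe set was called at a Benjamini-Hochberg adjusted p under 0.05 over all 22626 tested. In the fit to all 9 arrays 1713 probe sets, 7.57%, were called, 776 higher (3.43%) and 937 lower (4.14%) in overexpressing cells. The higher share of calls was 45.3%, 57.5% with a common array median (790 higher, 585 lower) and 55.5% with chromosome medians removed (795 and 638). At an unadjusted p under 0.05 there were 5092. All 3 overexpressed arrays lay on one side of all 3 knockdown arrays for 28.1% of probe sets, and for each of the 1713 called. Every array mattered to the count, which was 704, 957 and 1127 without overexpressed array A, B or C, and 953, 908 and 1004 without knockdown array A, B or C.

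Of the called probe sets, 387 differed more than 2-fold, 116 higher and 271 lower, and 30 more than 4-fold. Taking each of 12393 genes by its brightest probe set, 3.56% were called higher and 5.25% lower, and the median difference of all genes was -0.08. The counts of gene lists below are to be read against these percentages. The lists were written with earlier results of these data known, so their shares are descriptions and not tests. Array medians lay between 164.1 and 185.95, and correlations of log2 values were 0.972 to 0.978 within the 3 groups and 0.959 to 0.969 between overexpressed and knockdown arrays. The log2 difference between 3′ and 5′ probe sets of Gapdh was -0.45 to -0.30 in overexpressed and -0.39 to -0.30 in knockdown arrays.

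**Figure D1:**
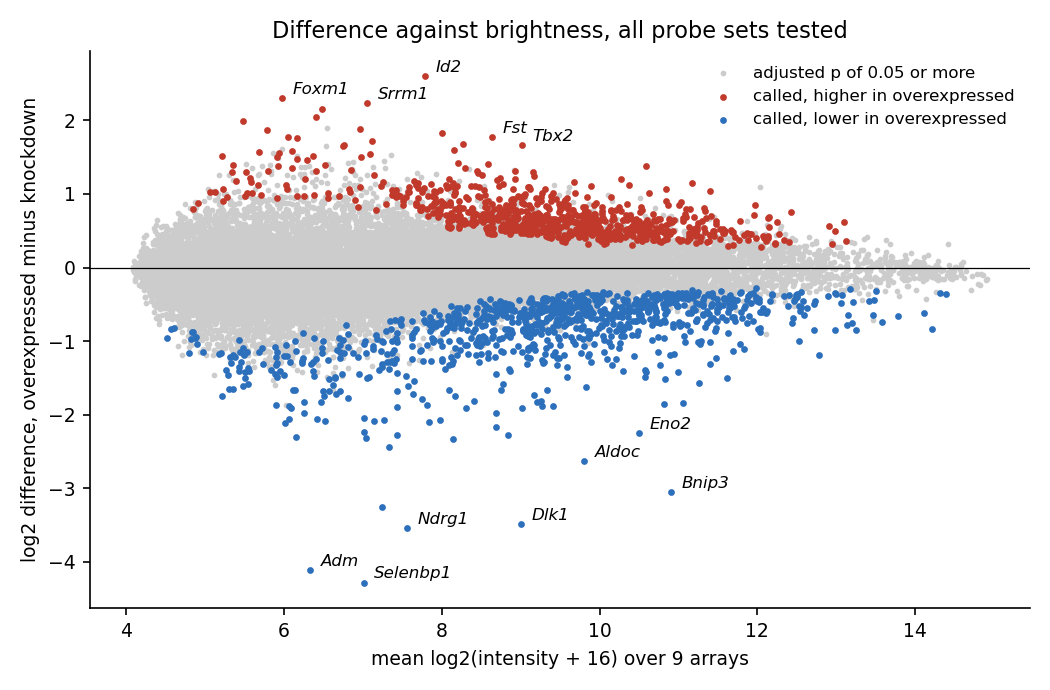
Each point is 1 of 22626 probe sets, with its mean log2(intensity + 16) over 9 arrays on the horizontal axis and its log2 difference, overexpressed minus knockdown, on the vertical axis. The 776 red points were called higher and the 937 blue points lower in overexpressing cells, and the lower side holds the larger differences, down to Selenbp1 at -4.28.

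Tcof1 itself was higher in overexpressing than in knockdown cells by 2 of its 3 probe sets. The first read 385.5, 232.4 and 263.6 in overexpressed arrays A, B and C and 134.8, 112.1 and 133 in knockdown arrays, with wildtype at 143.1, 156.3 and 149.8. It differed by 1.09 ± 0.21 (limma adjusted p = 0.0116). Overexpressed array A stands highest, and without it the difference was 0.89 with adjusted p = 0.0508, which no longer passed.

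The second, whose name marks it as possibly shared with other transcripts, read 229.5, 276.6 and 284 against 111.3, 115 and 137.2, with wildtype at 163.3, 131.8 and 204.3. Its difference was 1.03 ± 0.20 (limma adjusted p = 0.0137), and without overexpressed array B the difference of 0.99 just missed the threshold. The third read 274.2, 268.6 and 292.8 against 219.8, 228.9 and 204.9, a difference of 0.33 ± 0.17 that did not pass (limma adjusted p = 0.267). For each of the 3 probe sets the overexpressed and knockdown arrays did not overlap. Against wildtype, knockdown arrays differed by -0.22, -0.40 and 0.06 in the same order, and none of these passed (limma adjusted p = 0.744, 0.51 and 0.934). Overexpressed arrays differed from wildtype by 0.87, 0.63 and 0.39, of which the first passed (limma adjusted p = 0.0241, 0.0786 and 0.187). Tcof1 was thus above wildtype by 1 of 3 probe sets in the arrays labelled overexpressed, and a level below wildtype was not detected in those labelled knockdown. Whether a Tcof1 sequence was introduced, and whether the probes lie within it, is not known.

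**Figure D2:**
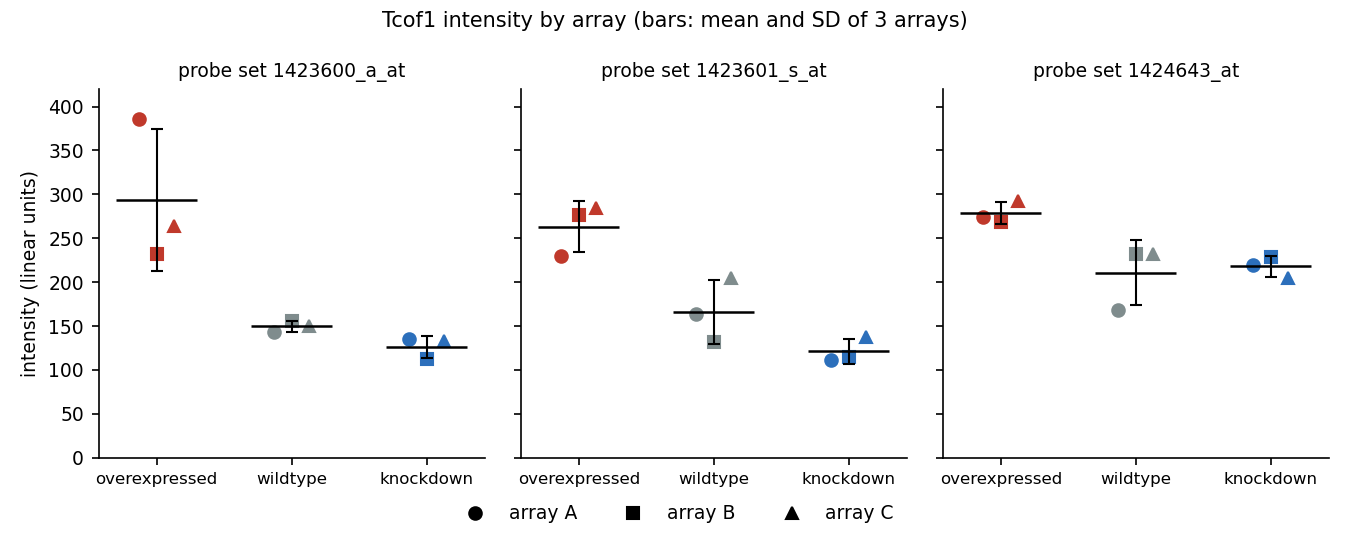
Linear intensity of the 3 Tcof1 probe sets by array, with the mean and SD of 3 arrays in black and the array letter as the symbol. Overexpressed arrays lie above knockdown arrays in each panel, and knockdown arrays lie close to or among the wildtype ones.

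Genes induced by low oxygen were lower in overexpressing than in knockdown cells. When oxygen falls, the prolyl hydroxylases stop marking the HIF alpha subunits for destruction, and HIF then binds promoters with the core ACGTG and raises glucose uptake, glycolysis, lactate export and mitophagy genes. Of 47 measured genes of the hypoxia list, 20 were called lower and 0 higher (42.6% lower, against 5.25% of all genes), with a median of -0.58. The list also holds regulators of the pathway, such as Hif1a, Epas1, Arnt and Vhl. Of 27 measured genes of glycolysis and glucose handling, 15 were called lower and 0 higher (55.6%), with a median of -0.73. Leaving out any 1 array left 18 to 20 hypoxia targets and 11 to 17 glycolysis genes called lower.

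The core was looked for in RefSeq promoters of assembly GRCm38.p6, in the 250 bases before and 50 after the start, on both strands. The letters ACGTG, which also occur within the E-box CACGTG, were found in 19.7% of 27025 promoters, in 21 of 38 hypoxia targets with a promoter (55.3%) and in 14 of 26 glycolysis genes (53.8%). Among called members it was in 10 of 17 (58.8%) and 7 of 14 (50%). Ribosome biogenesis genes, which were called in the opposite direction, held it in 31 of 71 promoters (43.7%) and 12 of 23 called ones (52.2%). A match is a description of the letters and not of a bound site. The 120 bases before the start of 5 called genes with a match there are shown, with the core in capitals on either strand. They come from chr7:138909507-138909626, minus strand (Bnip3), chr11:54100804-54100923, plus strand (P4ha2), chr14:45318573-45318692, minus strand (Ero1a), chr4:119108625-119108744, plus strand (Slc2a1) and chr11:120948947-120949066, plus strand (Slc16a3).
Bnip3: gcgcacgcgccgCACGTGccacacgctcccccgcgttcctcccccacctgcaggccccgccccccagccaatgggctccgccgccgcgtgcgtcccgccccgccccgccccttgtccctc
P4ha2: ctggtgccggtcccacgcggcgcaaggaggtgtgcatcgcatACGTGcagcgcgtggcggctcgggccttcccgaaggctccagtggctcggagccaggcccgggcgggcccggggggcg
Ero1a: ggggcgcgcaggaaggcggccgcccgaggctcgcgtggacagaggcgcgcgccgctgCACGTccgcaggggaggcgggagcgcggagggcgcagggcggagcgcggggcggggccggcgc
Slc2a1: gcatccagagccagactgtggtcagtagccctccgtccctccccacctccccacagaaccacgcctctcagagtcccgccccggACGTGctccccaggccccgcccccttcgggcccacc
Slc16a3: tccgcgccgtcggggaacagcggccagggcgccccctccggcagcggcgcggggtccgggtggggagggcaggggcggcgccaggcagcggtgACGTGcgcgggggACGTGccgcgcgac
In Bnip3 the core lies on both strands at once, within CACGTG, and starts 108 and 107 bases before the transcription start. Slc16a3 holds it 27 and 14 bases before the start, and P4ha2, Ero1a and Slc2a1 hold it once, at 78, 63 and 36 bases. Many other called members, among them Adm, Egln3, Aldoc, Eno2 and Pdk1, held no match in the 120 bases before theirs.

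Adm, which encodes the vasodilator peptide adrenomedullin, had the largest difference of the list by brightest probe set, although a second probe set of Selenbp1 reached -4.28. Adm read 10.3, 4.4 and 6.3 in overexpressed arrays A, B and C, 28.6, 29 and 78.3 in wildtype and 337.6, 278.8 and 578.4 in knockdown arrays. The 3 groups do not overlap, and overexpressed minus knockdown was -4.11 ± 0.36 (limma adjusted p = 0.000224), although the overexpressed readings lie below the 16 added before the log. Bnip3, a mitochondrial outer membrane protein that directs mitophagy, is bright in each group. Its arrays read 582.2, 578.2 and 761.4 with overexpression, 1247, 2186.8 and 2984.7 in wildtype and 5426.1, 5304.8 and 5468 with knockdown. Knockdown arrays were about equal to each other, wildtype arrays spread widely, and the difference was -3.06 ± 0.25 (limma adjusted p = 0.000178).

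Of the oxygen-sensing genes described here, 1 of 3 was called. Egln3, a HIF prolyl hydroxylase that HIF induces, read 498.9, 459.6 and 490.7 with overexpression, 1046.9, 921 and 946.3 in wildtype and 1498, 1380.3 and 1683.2 with knockdown (-1.62 ± 0.10, limma adjusted p = 4.51e-05). Egln1, the main HIF prolyl hydroxylase, differed by -0.36 ± 0.17 and did not pass. Hif1a ran the other way, at 2555.3, 2608.2 and 2586.7 with overexpression against 2280.3, 1988.5 and 2037.4 with knockdown, and also did not pass (0.30 ± 0.09, limma adjusted p = 0.0647). Vegfa, the angiogenic factor, overlapped between groups at -0.27 ± 0.15 (limma adjusted p = 0.35).

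P4ha2, a collagen prolyl hydroxylase subunit, read 1202.5, 1220.1 and 1261.4 against 2774.9, 2679.5 and 2883.8 in knockdown arrays, with wildtype at 2006.5, 2365.7 and 2223.4 (-1.17 ± 0.08, limma adjusted p = 6.89e-05). P4ha1 differed by -1.19 ± 0.13, Plod2, a collagen lysyl hydroxylase, by -0.88 ± 0.14, and the oxidase Ero1a by -1.01 ± 0.09. For these 3 the differences from wildtype were -0.62, -0.10 and -0.46 in overexpressing cells and 0.57, 0.79 and 0.55 in knockdown cells. Comparisons with wildtype share the wildtype arrays with each other, and are given as values only.

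Other called targets were Bhlhe40, a circadian and hypoxic repressor (-2.27 ± 0.16), Narf (-2.11 ± 0.37), Selenbp1, a selenium-binding protein (-1.87 ± 0.20 by its brightest probe set and -4.28 ± 0.59 by another), and Ndrg1. Ndrg1, a gene induced by hypoxia and repressed by Myc proteins, was called lower by each of its 5 probe sets, from -1.73 ± 0.15 on the brightest to -3.54 ± 0.33. The brightest read 293.3, 263.2 and 308.1 with overexpression, 658.1, 579.5 and 568.6 in wildtype and 884.4, 877.4 and 1256 with knockdown. Smaller called differences were those of Kdm3a, a histone demethylase (-0.88 ± 0.16), Ddit4, an inhibitor of mTORC1 signalling (-0.76 ± 0.11), and Higd1a, a mitochondrial protein (-0.58 ± 0.15).

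Along glycolysis the called genes ran from glucose entry to lactate export. Slc2a1, the glucose transporter GLUT1, read 475.3, 434.4 and 497.8 with overexpression, 510.2, 622.9 and 783 in wildtype and 1099.2, 1066.4 and 1183 with knockdown (-1.22 ± 0.14, limma adjusted p = 0.0011). Slc2a3, the neuronal transporter GLUT3, differed by -0.78 ± 0.09, with most of the difference on the overexpressing side (-0.68 against wildtype, and 0.10 for knockdown against wildtype). Hexokinase 2, encoded by Hk2, read 1095.8, 1030.2 and 1090.1 with overexpression, 753.6, 786.4 and 1202.7 in wildtype and 1761.5, 1868.4 and 1854.7 with knockdown (-0.76 ± 0.15, limma adjusted p = 0.014). For Hk2 the overexpressed arrays lie within the wildtype range and the knockdown arrays above it.

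Of the phosphofructokinases, Pfkl and Pfkm were called lower (-0.81 ± 0.14 and -0.74 ± 0.10) and Pfkp was not (-0.22 ± 0.12). Aldolase C, encoded by Aldoc, read 219.7, 233.2 and 340 with overexpression, 1460.7, 1715.2 and 1394.5 in wildtype and 1704, 1543.8 and 1821.6 with knockdown. Wildtype and knockdown arrays overlap there, and overexpressed minus knockdown was -2.63 ± 0.15 (limma adjusted p = 3.07e-05). A second, dim Aldoc probe set had a difference of 0.02 ± 0.31. Neuronal enolase, Eno2, had the same shape, at 577.6, 488.2 and 584.1 against 2253.2, 2952.2 and 2841.6 in knockdown arrays (-2.25 ± 0.15, limma adjusted p = 6.54e-05).

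From aldolase onward, Aldoa, Tpi1 and Pgam1 were called lower (-0.83 ± 0.10, -0.84 ± 0.12 and -0.61 ± 0.12). Pgk1, Pkm and Ldha had values of -0.43 ± 0.14, -0.37 ± 0.10 and -0.32 ± 0.12 that did not pass (limma adjusted p = 0.0833, 0.0557 and 0.154). Slc16a3, the lactate exporter MCT4, read 2066.7, 1972.1 and 2329.1 with overexpression, 1458.3, 1781.6 and 2313.2 in wildtype and 3456.7, 3533 and 3569.5 with knockdown (-0.73 ± 0.14, limma adjusted p = 0.013). Pdk1, the kinase that closes pyruvate dehydrogenase, read 31.1, 57.2 and 48.7 against 138, 155.3 and 163.8 in knockdown arrays (-1.47 ± 0.29, limma adjusted p = 0.0138), with wildtype at 26.7, 36.2 and 63.8. Slc16a3, Hk2, Pfkl and Pdk1 thus had overexpressed readings near or within the wildtype range, whereas Aldoc, Eno2, Slc2a3 and Bhlhe40 had knockdown readings near or within it. Over all probe sets 2169 were called between overexpressed and wildtype arrays and 3 between knockdown and wildtype arrays. By their brightest probe set 0 glycolysis and 0 hypoxia genes were among those 3. The hypoxia medians against wildtype were nonetheless -0.33 for overexpressing and 0.29 for knockdown cells, and the glycolysis medians -0.32 and 0.29.

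**Figure D3:**
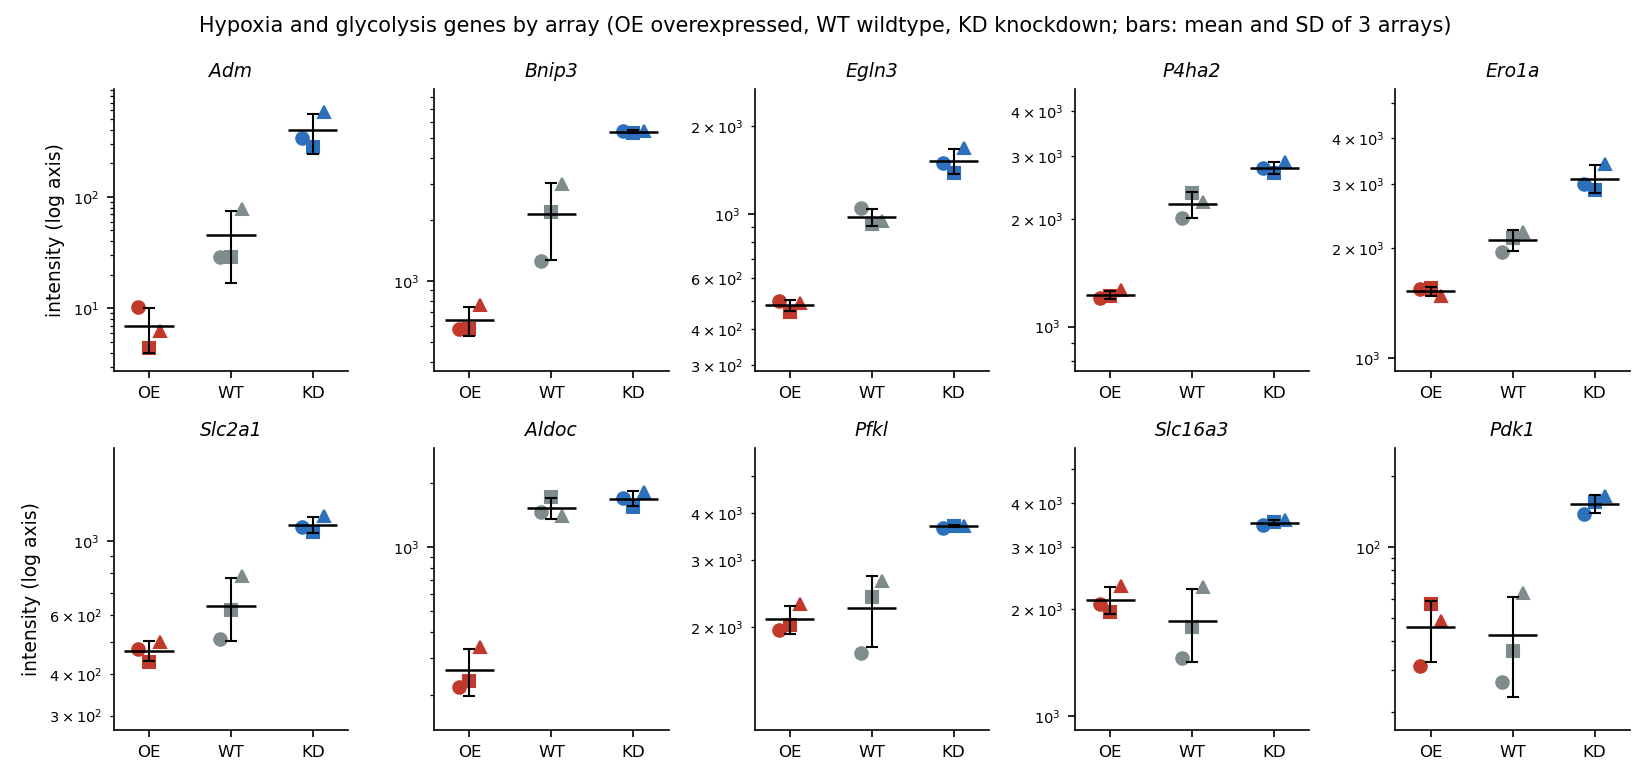
Linear intensity on a log axis of 10 hypoxia and glycolysis genes by array, with the mean and SD of 3 arrays in black (circles, squares and triangles are arrays A, B and C). Overexpressed arrays lie below knockdown arrays in each of the 10 panels, and wildtype arrays lie between them for Adm, Bnip3, Egln3, P4ha2, Ero1a and Slc2a1.

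Genes of DNA replication were higher in overexpressing cells. Replication starts when Cdc6 and Cdt1 load the MCM helicase at origins, Cdc7 with Dbf4 fires it, and polymerases then run with the clamp Pcna and the single-strand binder RPA. E2F factors induce most of these genes as cells enter S phase. Of 54 measured members 22 were called higher and 0 lower (40.7% higher, against 3.56% of all genes), with a median of 0.59. The medians against wildtype were 0.98 for overexpressing and 0.38 for knockdown cells. The count of members rests on the full set of arrays, as it was 9, 9 and 13 without overexpressed array A, B or C and 11, 8 and 11 without knockdown array A, B or C. No setting that was tried called a member lower. The share of cells in S phase and the RNA per cell cannot be told apart in these bulk samples.

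The E2F letters TTTCCCGC or TTTGGCGC, on either strand, were in 1.63% of all 27025 RefSeq promoters, in 14 of 46 replication genes with a promoter (30.4%) and in 7 of 21 called ones (33.3%). The 170 bases before the start of 4 called genes are shown with the match in capitals, from chr11:98907981-98908150, plus strand (Cdc6), chr8:75109339-75109508, plus strand (Mcm5), chr5:138171884-138172053, minus strand (Mcm7) and chr1:191575545-191575714, minus strand (Dtl), GRCm38.p6, RefSeq.
Cdc6: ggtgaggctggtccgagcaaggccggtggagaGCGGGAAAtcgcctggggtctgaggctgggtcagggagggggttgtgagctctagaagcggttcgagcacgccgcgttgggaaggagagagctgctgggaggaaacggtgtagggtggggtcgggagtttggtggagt
Mcm5: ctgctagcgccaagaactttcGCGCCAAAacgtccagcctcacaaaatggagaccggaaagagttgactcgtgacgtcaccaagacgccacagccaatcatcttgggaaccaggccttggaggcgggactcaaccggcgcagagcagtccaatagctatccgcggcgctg
Mcm7: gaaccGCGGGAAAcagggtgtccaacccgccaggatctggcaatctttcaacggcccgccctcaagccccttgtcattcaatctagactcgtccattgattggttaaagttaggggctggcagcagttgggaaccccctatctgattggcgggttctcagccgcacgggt
Dtl: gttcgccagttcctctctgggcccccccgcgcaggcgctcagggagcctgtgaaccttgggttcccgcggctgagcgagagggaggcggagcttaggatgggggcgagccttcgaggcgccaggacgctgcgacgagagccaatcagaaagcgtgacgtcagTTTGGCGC
The match starts 138 bases before the start in Cdc6, 149 in Mcm5, 165 in Mcm7 and 8 in Dtl. Many other called members, among them Mcm10, Cdt1 and Pcna, held no match in the 170 bases before theirs.

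Among licensing factors, Cdc6 had the largest difference, at 218.1, 395.6 and 343.6 with overexpression, 49.7, 29.9 and 93.8 in wildtype and 123.8, 79.4 and 87.5 with knockdown (1.55 ± 0.34, limma adjusted p = 0.0219). Cdt1 read 5514.2, 5863.9 and 5289.2 against 3696.1, 2732 and 2867.5 in knockdown arrays (0.85 ± 0.13, limma adjusted p = 0.00439), with knockdown at -0.30 from wildtype. Dtl, the receptor by which the CRL4 ligase degrades Cdt1 in S phase, read 730.5, 857.3 and 612 against 308.4, 243.5 and 323.1 (1.28 ± 0.24, limma adjusted p = 0.0104). Orc2, of the origin recognition complex, was called at 0.68 ± 0.15, and the firing kinase subunits Cdc7 and Dbf4 at 0.62 ± 0.15 and 0.50 ± 0.12.

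Of the helicase, Mcm3, Mcm5 and Mcm7 were called higher and Mcm2, Mcm4 and Mcm6 were not (0.51 ± 0.18, 0.72 ± 0.24 and 0.60 ± 0.18, limma adjusted p = 0.112, 0.0959 and 0.0711). Mcm5 read 860.5, 1145 and 868.9 with overexpression, 150, 172.4 and 291.2 in wildtype and 608.3, 477.8 and 469.3 with knockdown (0.86 ± 0.22, limma adjusted p = 0.0389). Here knockdown arrays lie between the other groups and above wildtype. Mcm10, which helps to activate the helicase, read 1102.2, 1113.5 and 966.8 against 427.6, 445 and 437.6 in knockdown arrays (1.25 ± 0.14, limma adjusted p = 0.000807), with wildtype at 342.7, 460.4 and 322.7, overlapping the knockdown arrays.

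At the fork, Pcna read 7286.3, 7473.8 and 7023.1 with overexpression, 2141.7, 2883.9 and 3511.3 in wildtype and 4948.3, 4044.8 and 4601.8 with knockdown (0.68 ± 0.15, limma adjusted p = 0.023). Rpa1 and Rpa2 were called at 0.61 ± 0.15 and 0.95 ± 0.17, the primase and polymerase alpha genes Prim1 and Pola2 at 0.44 ± 0.10 and 0.95 ± 0.24, and Wdhd1, which ties the polymerase to the helicase, at 0.89 ± 0.17. Nucleotide supply was represented by Rrm1 (0.44 ± 0.10) and Dut (0.62 ± 0.16). Uhrf1, which recruits the maintenance DNA methyltransferase, was called at 1.07 ± 0.19.

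Mitosis genes had fewer calls. Of 54 measured members 4 were called higher and 0 lower (7.41% higher, against 3.56% of all genes), with a median of 0.40. Their medians against wildtype were 0.87 for overexpressing and 0.48 for knockdown cells. The 4 were the centromere protein gene Cenpn (0.73 ± 0.13), the centriole kinase Plk4 (0.83 ± 0.16), the cell cycle transcription factor Mybl2 (0.89 ± 0.22) and the spindle protein Tpx2 (0.50 ± 0.13). Mybl2 read 486, 479.6 and 481.2 with overexpression, 97.9, 136.2 and 205.7 in wildtype and 278.3, 238.2 and 244 with knockdown. Cdk1, the mitotic kinase, read 3490.6, 3492.9 and 3141.3 against 2873.3, 2669.7 and 2772.7 and did not pass (0.28 ± 0.15), nor did Top2a (0.52 ± 0.17) or Bub1 (0.75 ± 0.24). Without any 1 overexpressed or knockdown array 1 or 2 members were called, 2 without wildtype array B, 12 without wildtype array A, 10 without wildtype array C and 14 when the 6 arrays were fitted alone.

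**Figure D4:**
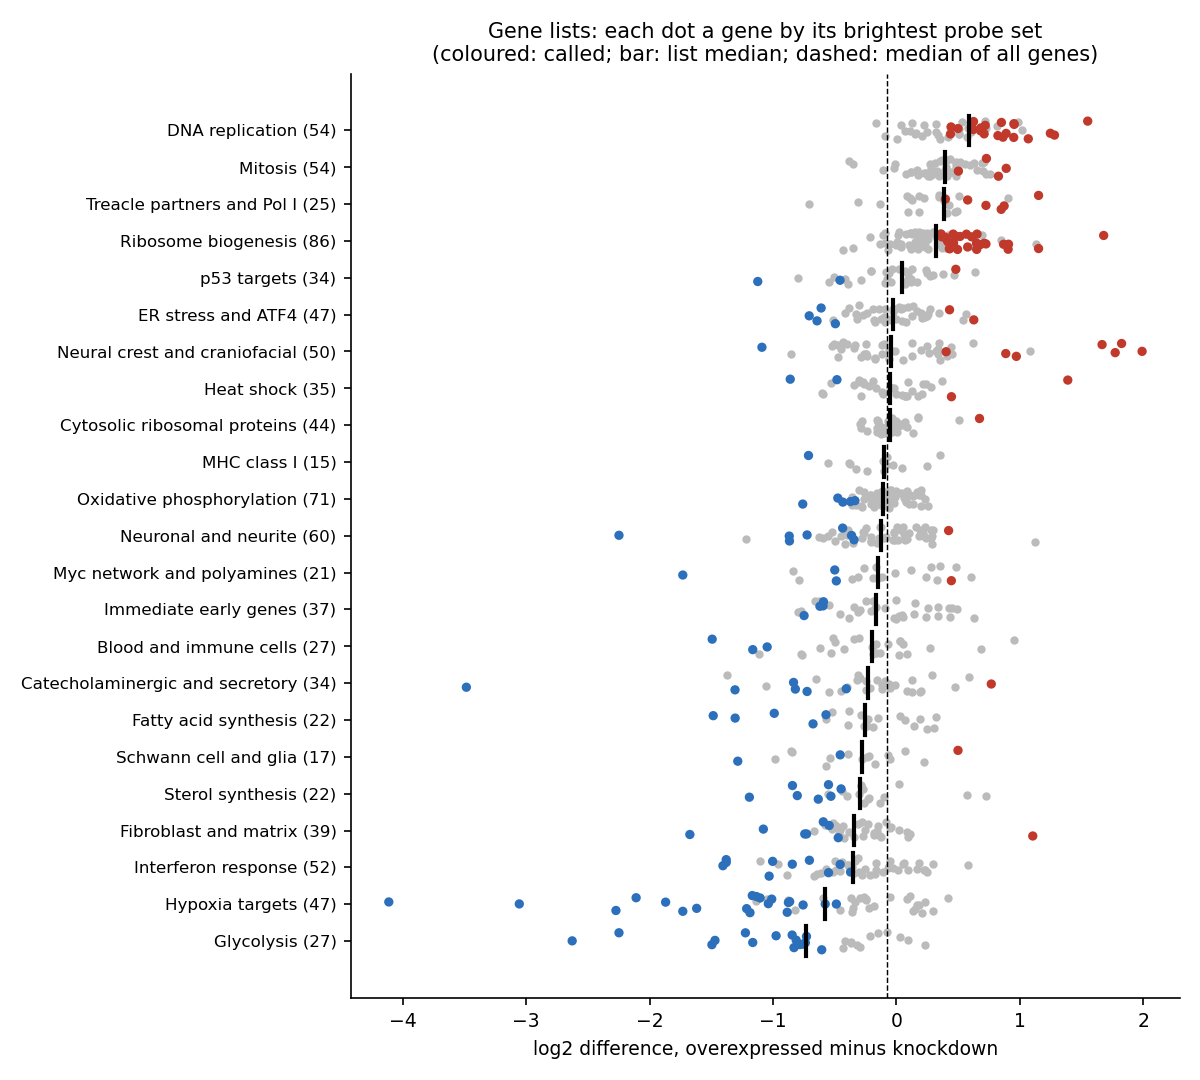
Log2 difference, overexpressed minus knockdown, of each gene by its brightest probe set, in 23 lists with the number measured in brackets. Coloured dots were called, bars are list medians, and the dashed line is the median of all genes, -0.08. DNA replication has the highest median (0.59) and glycolysis the lowest (-0.73).

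Genes of ribosome production, the pathway treacle serves, were higher in overexpressing cells. The nascent ribosomal RNA is bound by the small-subunit processome and by snoRNP particles that guide its modification, and further assembly factors release the 2 subunits. Of 86 measured ribosome biogenesis genes 26 were called higher and 0 lower (30.2%, against 3.56% of all genes), with a median of 0.32. The medians against wildtype were 0.33 for overexpressing and 0.01 for knockdown cells. Without overexpressed array A, B or C the count was 9, 13 and 15, and without knockdown array A, B or C it was 16, 15 and 15. With overexpressed array C or wildtype array A left out, with the filter on dim probe sets, or with quantile normalization, 1 member was called lower.

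Of 25 treacle partners and RNA polymerase I genes 6 were called higher and 0 lower (24% higher, against 3.56% of all genes), with a median of 0.39. They were Polr1b, the second largest polymerase I subunit, Nolc1, a treacle-like nucleolar scaffold, the helicase Ddx21, and the box C/D snoRNP proteins Fbl, Nop56 and Nop58. The last 4 also belong to the biogenesis list. Polr1b read 990, 1117.7 and 1055.7 with overexpression, 680.9, 715.5 and 782 in wildtype and 586.3, 498.6 and 658.9 with knockdown (0.85 ± 0.12, limma adjusted p = 0.00255). Its 3 groups did not overlap. Without overexpressed array A, B or C 4 members were called, and 9 without wildtype array A.

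Nolc1 read 1413.1, 1245.4 and 1515.3 with overexpression, 788.9, 899.6 and 994.2 in wildtype and 674.9, 753.2 and 830 with knockdown (0.87 ± 0.12, limma adjusted p = 0.00255). Each of its 2 other probe sets was also called higher, the largest at 1.88 ± 0.29. Polr1a, Polr1c and Polr1d did not pass (0.48 ± 0.15, 0.35 ± 0.18 and 0.09 ± 0.13), and neither did the polymerase I factors Ubtf (0.34 ± 0.13) and Rrn3 (0.11 ± 0.18). The abundant nucleolar proteins nucleolin and nucleophosmin, Ncl and Npm1, had values of 0.18 ± 0.10 and 0.09 ± 0.10.

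Nop56 had the largest difference of the snoRNP proteins, at 4312, 3758.3 and 4098.7 with overexpression, 1553.5, 1594.4 and 1838.1 in wildtype and 1856.4, 1597.3 and 2012.7 with knockdown (1.15 ± 0.11, limma adjusted p = 0.000303). Its wildtype and knockdown arrays overlap. Nop58 was called at 0.73 ± 0.12 and the methyltransferase Fbl at 0.40 ± 0.10. Rrp9, the U3 snoRNP protein, read 806.6, 571.7 and 715.8 against 305.4, 113.9 and 241.9 in knockdown arrays (1.68 ± 0.33, limma adjusted p = 0.0131).

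In the small-subunit processome, Mphosph10 was called at 0.61 ± 0.09, Utp4 at 0.50 ± 0.07, Utp18 at 0.46 ± 0.12, Utp20 at 0.71 ± 0.15 and Heatr1 at 0.43 ± 0.12. Late small-subunit factors included the kinase Riok2 (0.91 ± 0.15), Tsr1 (0.87 ± 0.11), Pno1 (0.65 ± 0.15) and Bysl (0.37 ± 0.10). For the large subunit, Nop2, a ribosomal RNA methyltransferase, was called at 0.65 ± 0.11, Ftsj3 at 0.91 ± 0.16, Ddx27 at 0.68 ± 0.15, Pelp1 at 0.57 ± 0.14 and Wdr12 at 0.41 ± 0.10. Exosc2 of the RNA exosome, which trims the precursor, stood at 0.65 ± 0.10. Promoters of ribosome biogenesis genes held the E-box CACGTG, to which Myc proteins bind, in 23.9% of 71 genes and in 30.4% of 23 called ones, against 7.24% of all promoters.

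Structural proteins of the cytosolic ribosome did not move with the assembly factors. Of 44 measured 1 was called higher (2.27%, against 3.56% of all genes). It was Rpl14, at 486.2, 430 and 467.9 against 298.8, 271.7 and 281.5 (0.67 ± 0.13, limma adjusted p = 0.0144). The list median was -0.05, and turned to above 0 with quantile normalization or a common array median. Mycn, the Myc family member amplified in many neuroblastomas, was called lower, at 1375.6, 1414 and 1256.8 with overexpression against 1760.5, 1971.4 and 2010.9 with knockdown (-0.50 ± 0.11, limma adjusted p = 0.021). Myc had a value of 0.24 ± 0.10 that did not pass. Of 21 Myc network and polyamine genes 1 was called higher (4.76%, against 3.56% of all genes), the antizyme inhibitor Azin1 (0.45 ± 0.08). Lower were 3 (14.3%, against 5.25%), Mycn, Ndrg1 and Mxi1, with Odc1 at -0.01 ± 0.13. Ndrg1 and Mxi1 also belong to the hypoxia list and are counted among its called genes.

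Interferon-induced genes were lower in overexpressing cells. Type I interferon signals through JAK kinases to transcription factors that bind elements with GAAA repeats and induce antiviral effectors. Of 52 measured members 10 were called lower and 0 higher (19.2%, against 5.25%), with a median of -0.35. Without overexpressed array A or knockdown array A 6 were called. The medians against wildtype were -0.31 for overexpressing and -0.03 for knockdown cells. The letters GAAANNGAA, on either strand, were in 8.57% of all promoters, in 19 of 42 members (45.2%) and in 6 of 9 called ones (66.7%).

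Isg20, an antiviral exonuclease, read 223.5, 258.1 and 252.7 with overexpression, 513.6, 611.6 and 539.8 in wildtype and 593.1, 752.7 and 684.6 with knockdown (-1.41 ± 0.13, limma adjusted p = 0.000303). Ifitm3, which blocks viral membrane fusion, read 815.5, 694.3 and 733.7 against 1558.5, 1516.3 and 1550.4 (-1.03 ± 0.11), and Oas1a, an RNA sensor enzyme, 310, 280.6 and 327.6 against 585.9, 569.8 and 528.5 (-0.84 ± 0.11). Rsad2, the antiviral enzyme viperin, had its highest readings in wildtype, at 1396.1, 1110.2 and 763, with 134.5, 180.2 and 205.7 with overexpression and 513.8, 530.7 and 381.7 with knockdown (-1.38 ± 0.23, limma adjusted p = 0.00623). Ifit1 was ordered the same way, at 110.5, 116.5 and 112.5, then 274.9, 256.1 and 203 with knockdown and 524.6, 484.8 and 395.5 in wildtype. The signalling gene Stat2 was called at -0.55 ± 0.15.

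MHC class I genes differed little as a list. Of 15 measured 1 was called lower (6.67%, against 5.25% of all genes). It was the immunoproteasome subunit Psmb9 (-0.72 ± 0.15, limma adjusted p = 0.0187), whose call was lost without overexpressed array A, knockdown array A or knockdown array B. The heavy chain H2-K1 (-0.56 ± 0.18) and Psmb8 (-0.32 ± 0.10) did not pass, and the light chain B2m had the opposite sign (0.35 ± 0.12). The list median was -0.10.

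Genes of lipid synthesis were lower in overexpressing cells at some steps. Of 22 sterol genes 7 were called lower (31.8%, against 5.25% of all genes) and 0 higher, with a median of -0.30. Among 22 fatty acid genes 5 were called lower (22.7%) and 0 higher, with a median of -0.25. Pmvk, the phosphomevalonate kinase, read 366, 299.2 and 482.3 with overexpression, 835.2, 887.1 and 925.7 in wildtype and 825.2, 885 and 926.7 with knockdown (-1.19 ± 0.15, limma adjusted p = 0.00174). Mvd (-0.63 ± 0.14), Fdps (-0.84 ± 0.17), the squalene synthase gene Fdft1 (-0.55 ± 0.13), Lss (-0.53 ± 0.14) and Tm7sf2 (-0.80 ± 0.11) followed along the pathway. Sqle, Hmgcs1 and the regulator Srebf2 had values of -0.23 ± 0.19, -0.13 ± 0.17 and -0.30 ± 0.15 that did not pass. Overexpressed array C had the highest readings of its group for Pmvk, Fdps, Tm7sf2 and Mvd.

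Called fatty acid genes were the phosphatidate phosphatase Lpin1 (-1.48 ± 0.19), Thrsp (-1.31 ± 0.19), the acetyl-CoA synthetase Acss2 (-0.99 ± 0.11), Fads3 (-0.68 ± 0.15) and Elovl7 (-0.57 ± 0.13). Fatty acid synthase itself, Fasn, had a value of 0.14 ± 0.12 and the desaturase Scd2 one of -0.15 ± 0.08. The sterol count was 2, 3 and 6 without overexpressed array A, B or C and 5, 3 and 2 without knockdown array A, B or C. The fatty acid count was 3 without overexpressed array A or B or knockdown array B.

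The cells read as catecholaminergic neuroblastoma in both groups. Th, the rate-limiting enzyme of catecholamine synthesis, read 2637.8, 2734.6 and 3256.1 with overexpression and 3359.4, 3363.6 and 4070.8 with knockdown (-0.32 ± 0.11, limma adjusted p = 0.099). Dbh, which makes noradrenaline, and the lineage factor Phox2a overlapped between groups (-0.06 ± 0.11 and -0.01 ± 0.14). Ddc, Nefl and Nefm were dim in all 9 arrays, at 99.9 or below. Of 34 catecholaminergic and secretory genes 6 were called lower (17.6%, against 5.25% of all genes) and 1 higher (2.94%, against 3.56%). The list median was -0.23.

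Ache, acetylcholinesterase, for which N1E-115 is known, read 317.6, 230.8 and 278.1 with overexpression, 655.9, 817.8 and 785.2 in wildtype and 683.7, 741.5 and 676.9 with knockdown (-1.31 ± 0.14, limma adjusted p = 0.000623). The granule protein chromogranin A, Chga, read 1860.6, 2143.8 and 1909.3 against 3278.8, 3721.1 and 3463.1 (-0.82 ± 0.12). Qdpr, which regenerates the cofactor of Th, was called at -0.72 ± 0.09, the vesicular monoamine transporter Slc18a1 at -0.83 ± 0.19 and the granule protein gene Pcsk1n at -0.41 ± 0.09. Isl1, a sympathetic lineage factor, was higher, at 1850.6, 1940.5 and 1753.2 against 1061.3, 1052.3 and 1119.2 (0.77 ± 0.21, limma adjusted p = 0.0482). Its call was lost without any 1 of the 6 arrays or wildtype array B, and without overexpressed array A or C or knockdown array A or B 4 members were called lower.

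Dlk1, a Notch-related membrane protein of neuroendocrine precursors, had the smallest p of all list members. It read 62.2, 93.9 and 108.1 with overexpression, 1192.4, 1111.1 and 1134.5 in wildtype and 1071.2, 1099.8 and 1216.5 with knockdown (-3.48 ± 0.16, limma adjusted p = 6.47e-06). Wildtype and knockdown arrays overlap, and overexpressed arrays lie far below both.

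Of 60 neuronal and neurite genes 7 were called lower (11.7%, against 5.25% of all genes) and 1 higher (1.67%, against 3.56%). The list median was -0.13. Besides Eno2 the lower ones were the adhesion molecule Nrcam (-0.87 ± 0.12), the synaptic vesicle genes Rab3a (-0.87 ± 0.15) and Syp (-0.72 ± 0.11), Tubb3 (-0.44 ± 0.11), the growth cone protein Gap43 (-0.36 ± 0.10) and Uchl1 (-0.34 ± 0.08). Map1b, a microtubule-associated protein, was higher (0.42 ± 0.10). Without overexpressed array A or B or knockdown array C 4 were called lower.

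Among regulators of neural crest and face formation more were called higher than lower. Of 50 measured 7 were called higher (14%, against 3.56% of all genes) and 1 lower (2%, against 5.25%). The list median was -0.05 and turned to above 0 under several settings, such as without overexpressed array A or with quantile normalization. The Id genes encode inhibitors of bHLH factors that BMP signals induce. Id1 read 3168.2, 3536 and 3075.4 with overexpression, 1627.7, 1438 and 1628.8 in wildtype and 1808.6, 1650.9 and 1805.5 with knockdown (0.89 ± 0.09, limma adjusted p = 0.000534). Id3 was called at 0.97 ± 0.17. Id2 had 2 of 3 probe sets called, at 2.60 ± 0.35 and 1.82 ± 0.28, and the first read 609.6, 612 and 736.5 against 124.2, 40.4 and 151.

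Fst, which encodes follistatin, a secreted antagonist of activin and BMP ligands, read 932.2, 1201.8 and 889.7 with overexpression, 172.5, 203.3 and 197.8 in wildtype and 264.6, 324.1 and 258.7 with knockdown (1.77 ± 0.15, limma adjusted p = 0.000223). Bmp7, one such ligand, was lower, at 297.4, 353.2 and 437.4 against 767, 978.7 and 633.3 (-1.09 ± 0.29, limma adjusted p = 0.0443), and lost its call without any 1 of the 6 arrays or wildtype array B. Tbx2, a T-box repressor of craniofacial tissue, differed on both sides of wildtype, at 849, 969.6 and 956.4, then 553.6, 486 and 422.8 in wildtype and 235, 287.7 and 324.1 with knockdown (1.67 ± 0.14, limma adjusted p = 0.000223). Dlx1, a jaw patterning homeobox gene, read 103.7, 78.2 and 118.8 against 9, 12 and 18.6, near the added 16 (1.99 ± 0.23). Sox9 (-0.34 ± 0.15) and Sox10 (-0.17 ± 0.26) did not pass, and Twist1 was dim.

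The p53, endoplasmic reticulum stress and heat shock lists had 2.94% to 5.71% of genes called higher and 5.71% to 8.51% lower. Over all genes the shares were 3.56% and 5.25%. Of 34 p53 targets, which nucleolar stress is known to raise, 1 was called higher, Rps27l (0.48 ± 0.11), and 2 lower, Ccng2 (-1.12 ± 0.13) and Sertad1 (-0.46 ± 0.12). Cdkn1a read 2001.1, 2140.5 and 2074.8 against 1979.2, 1853.8 and 1977.4 (0.10 ± 0.08), and Mdm2 had a value of 0.24 ± 0.17. Of 47 genes of endoplasmic reticulum stress and ATF4, Mthfd2 and Shmt2 of mitochondrial folate metabolism were higher (0.63 ± 0.14 and 0.43 ± 0.11), and Pdia6, Sdf2l1, Sel1l and Wars lower (-0.71 ± 0.13, -0.64 ± 0.17, -0.61 ± 0.11 and -0.49 ± 0.10). The medians of these lists, 0.05 and -0.03, turned to -0.01 with the mean of a gene's probe sets and to 0.04 with a common array median.

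Of 35 heat shock genes Hspa1b and Hsph1 were higher (1.39 ± 0.27 and 0.45 ± 0.12) and Hspa2 and Dnajb1 lower (-0.86 ± 0.22 and -0.48 ± 0.10). Hspa1b, an inducible Hsp70 with a near-identical neighbour, read 33, 54.6 and 36.6 against 7.7, 7 and 2.6, all dim. Its other probe sets, also dim, had -0.69 ± 0.31 and -0.15 ± 0.51, and the other probe set of Dnajb1 had 0.15 ± 0.12, none of which passed. Of 71 oxidative phosphorylation genes 5 were called lower (7.04%, against 5.25% of all genes) and 0 higher. The list median was -0.11, against -0.08 for all genes, and the smallest p was that of Ndufv3 of complex I (-0.76 ± 0.09). Of 37 immediate early genes 4 were lower (10.8%, against 5.25% of all genes). They were Klf10 (-0.59 ± 0.10), the ERK phosphatase Dusp6 (-0.62 ± 0.10), Ier3 (-0.59 ± 0.12) and Fosl2 (-0.75 ± 0.16). Fos and Egr1 had values of 0.34 ± 0.14 and -0.55 ± 0.22 that did not pass. These small counts rest on single arrays. Without any 1 overexpressed array or knockdown array C the heat shock list had 1 gene higher and 0 lower, and without overexpressed array A or any 1 knockdown array 2 oxidative phosphorylation genes were called.

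Some markers of other cell types were called, most of them lower. Of 39 fibroblast and matrix genes 7 were called lower (17.9%, against 5.25% of all genes) and 1 higher, with a median of -0.34. Their summed intensity was 56587 to 59862 in overexpressed and 63016 to 66605 in knockdown arrays. Fibronectin, Fn1, was called at -0.73 ± 0.14, Sparc at -1.08 ± 0.23 and Pdgfrb at -1.67 ± 0.33, and Igfbp5 was higher (1.10 ± 0.21), while Vim (0.09 ± 0.09) and Col1a1 (-0.26 ± 0.24), which was dim, did not pass. The count of 7 was 1, 2 and 5 without overexpressed array A, B or C and 3, 2 and 3 without knockdown array A, B or C. Of 17 Schwann cell and glia genes 11.8% were lower, Clu and Erbb3 (-1.29 ± 0.21 and -0.46 ± 0.12), and 5.88% higher, Ngfr (0.50 ± 0.11). The glia sums overlapped, at 9516.3 to 11407 in overexpressed and 10971 to 11404 in knockdown arrays. Of 27 blood and immune genes 11.1% were lower, Cd74 (-1.05 ± 0.12), Pecam1 (-1.49 ± 0.28) and Cd3e (-1.16 ± 0.31). Pecam1 and Cd3e were dim, at 149.9 or below in all 9 arrays. The summed intensity of the blood and immune list was 2106.5 to 2354.8 against 2853.5 to 3452.9. Pecam1, called lower, is also an endothelial marker. The other endothelial markers Cdh5, Kdr and Tek, which the blood and immune list also holds, overlapped between groups. The part of other cells in the differences was not tested.

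The genes with the largest called differences, by the rule for naming, included several that the lists do not hold. Among the higher ones, Wnt5a, a non-canonical Wnt ligand, read 213.8, 171.4 and 145.8 with overexpression, 38.5, 51.9 and 71.6 in wildtype and 47.8, 8.3 and 48.7 with knockdown (2.04 ± 0.38, limma adjusted p = 0.0111). Its other probe set did not pass (1.16 ± 0.37). Foxm1, a driver of mitotic gene expression that the mitosis list does hold, was called by 1 of 4 probe sets (2.31 ± 0.29), at 208, 122.3 and 210.2 against 19.7, 16.4 and 34, and its brightest had a difference of 0.31 ± 0.22. Trip13, a checkpoint ATPase, was called by both probe sets (1.42 ± 0.27 and 1.17 ± 0.29), and Mad1l1, a spindle checkpoint protein, at 1.72 ± 0.46. Knop1, a nucleolar protein, stood at 2.15 ± 0.37, while its brighter probe set did not pass (0.95 ± 0.32), and the snoRNA host gene Snhg1 at 1.66 ± 0.33, on 1 of 5 probe sets, and the 3 brighter ones had 0.06 ± 0.20 to 0.39 ± 0.28.

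A few higher genes differed by a low knockdown reading. Srrm1, a splicing coactivator, read 217.8, 160.4 and 229.1 with overexpression, 274.1, 239.1 and 157.2 in wildtype and 30.1, 30.6 and 29.4 with knockdown, on 1 of 4 probe sets (2.23 ± 0.25, limma adjusted p = 0.000845). Its brightest probe set had 0.11 ± 0.11. Ppargc1b, a coactivator of mitochondrial genes, read 330.5, 497.1 and 372.7, then 417.2, 441.6 and 355.7 in wildtype and 153.5, 149.8 and 72.4 with knockdown (1.6 ± 0.25, limma adjusted p = 0.0052). For both genes overexpressed and wildtype arrays overlap and knockdown arrays lie below them. Mtm1, a phosphoinositide phosphatase, was called by 2 of 3 probe sets, at most 1.40 ± 0.28, and the third had the opposite sign without a call. By the first of these, its knockdown arrays were instead near wildtype (-0.03) and its overexpressed arrays above it (1.38).

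On the lower side, Prom1, the stem cell surface protein CD133, read 121.1, 149.4 and 127.8 with overexpression, 718.9, 713.2 and 637.1 in wildtype and 672.4, 602 and 671.3 with knockdown (-2.16 ± 0.13, limma adjusted p = 3.07e-05). Adam23, a neuronal adhesion protein, read 26.3, 37.7 and 39 against 308.2, 206.9 and 255.5 (-2.43 ± 0.22), and Fxyd7, a regulator of the sodium pump, 50.3, 87.2 and 110.4 against 321.9, 398.3 and 440.1 (-2.07 ± 0.24). Ace, angiotensin-converting enzyme, was called by both probe sets (-2.28 ± 0.27 and -1.05 ± 0.11), and Clu, the secreted chaperone clusterin of the glia list, by each of 4 (-2.33 ± 0.28 to -1.29 ± 0.21). Txnip, a glucose-induced inhibitor of thioredoxin, was called by both (-2.23 ± 0.41 and -2.08 ± 0.30), and the interleukin 4 receptor gene Il4ra by 1 of 3 (-2.04 ± 0.39). For Prom1, Adam23, Fxyd7 and Clu the wildtype and knockdown arrays overlap.

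Called genes were not spread evenly over the chromosomes, which were read from the RefSeq gene table. Chromosome 2 held 965 of 12369 genes with a chromosome (7.79%) and 93 of the 441 genes called higher by their brightest probe set (21.1%). On it 9.64% of genes were called higher and 2.90% lower, with a median of 0.04, and in each of 6 bins of about equal gene number along it 7.45% to 11.2% were called higher. Chromosome 17 had 7.89% higher and 3.52% lower. Nop56, Polr1b, Exosc2, Ddx27, Mcm10, Pcna, Id1, Dlx1, Mybl2 and Tpx2 lie on chromosome 2. Acss2 and Pdk1, which were lower, also lie there.

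Chromosome 12 ran the other way, with 12.2% of 384 genes called lower and 0.521% higher and a median of -0.20. Chromosomes 15 and 3 had 8.69% and 8.41% lower, with medians of -0.16 and -0.18. Dlk1, Chga, Nrcam, Egln3, Rsad2, Lpin1, Mycn, Sel1l and Pdia6 lie on chromosome 12, as does Id2, which was higher. Against wildtype the chromosome 12 median was -0.15 for overexpressing and 0.01 for knockdown cells, and that of chromosome 2 was 0.07 and 0.03. With each chromosome's median taken off every array, 23 replication and 28 ribosome biogenesis genes were called higher and 18 hypoxia, 13 glycolysis and 8 interferon genes lower. The bins and this adjustment were chosen after the values were seen, and the source of the chromosome differences was not tested.

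**Figure D5:**
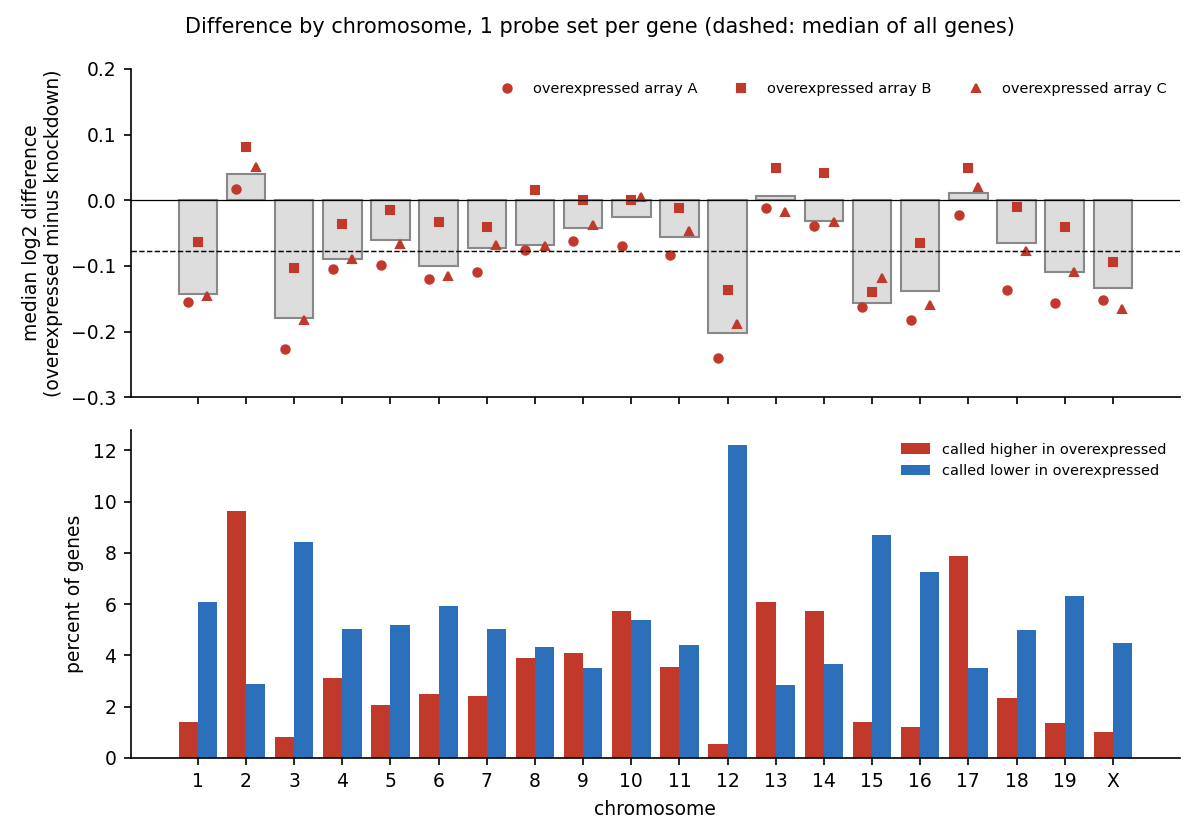
Above, the median log2 difference of the genes of each chromosome, overexpressed minus knockdown (bars), with each overexpressed array set against the mean of the knockdown arrays (symbols) and the median of all genes dashed. Below, the percent of each chromosome's genes called higher (red) and lower (blue), highest for chromosome 2 at 9.64% higher and chromosome 12 at 12.2% lower.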

How the data were processed

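The deposited values are linear intensities, 1 per probe set and array, with probe set names of the Affymetrix kind. The sources used here do not give the software or scaling. A mean trimmed by 2% at each end was 500.2 on every array, so the authors' intensities share a scale. Of 22690 probe sets 64 controls were left out. Names come from the platform annotation, where 20380 of the 22626 tested had exactly 1 symbol, 691 several and 1555 none.

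The linear model of limma 3.58.1 (R 4.3.3), moderated by eBayes with trend, described log2(intensity + 16) on all 9 arrays with a mean per group, and was tested on simulated data. Genes named were Tcof1, up to 15 genes per direction with the largest called differences (1 symbol, groups apart, brighter group above the median probe set), up to 4 called members per list with the smallest p, and further list members by role. The 23 lists held 920 measured entries. Members and lists were chosen with earlier results of these data known. A gene's value is that of its brightest probe set. No list was tested as a set. Alternatives were pseudocounts of 1 and 64, a filter on dim probe sets, quantile normalization, a common array median, no trend, 6 arrays alone, the letter as a block, limma's treat, the mean of a gene's probe sets, and each array left out. Chromosome medians removed was added after the data were seen. Promoters are RefSeq's, 1 per gene, from GRCm38.p6. The number of arrays limits the precision.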

Additional observations from a re-analysis of the deposited data

How the results depend on the processing

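The probe sets named for the largest differences or for the smallest p of a list numbered 104, not counting Tcof1 and genes named by role. Of these, 0 changed direction under any alternative that gave a value. Each had been called with groups that did not overlap, so most alternatives could hardly reverse it, and this is no support. Under at least 1 alternative 81 lost their call, all 81 when limma's treat asked for a difference beyond 1.5-fold. Treat called 45 probe sets, 6 higher and 39 lower, with neither Tcof1 probe set (differences 1.09 and 1.03), 0 ribosome biogenesis, 0 replication, 2 glycolysis, 7 hypoxia and 1 interferon gene. Without the mean-variance trend 834 were called, 323 higher and 511 lower, with 10 ribosome biogenesis and 10 replication genes. A common array median left 585 lower. Pseudocounts of 1 and 64, quantile normalization and the 6 arrays alone gave 1747, 1676, 1712 and 1784 calls, and the filter on dim probe sets 2205 of 13575.

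Leaving out 1 array gave 704 to 2048 calls, 252 to 980 higher and 452 to 1068 lower, 9 to 33 ribosome biogenesis, 8 to 27 replication, and 6 to 10 interferon genes. The Tcof1 differences ran from 0.89 to 1.24 and from 0.97 to 1.12. The letters A, B and C are not stated to pair arrays, and the deviations of same-lettered overexpressed and knockdown arrays correlated at 0.103, 0.165 and -0.00633. With the letter as a replicate block 1600 probe sets were called, 729 higher and 871 lower, 1436 of them shared with the fit without it. Dim probe sets are the least certain, since no detection calls were used here.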
